A study of Drosophila melanogaster with 3 samples.

Results

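The sites described here are the positions that a map of FMRP contacts lists on the ribosomal DNA (rDNA) scaffold of Drosophila melanogaster. The members are all sites whose sequence name contains rDNA, 378 of 60497 sites in the series, or 0.625% (95% exact Clopper-Pearson interval 0.564 to 0.691). FMRP, the product of Fmr1, binds RNA and regulates translation. Its contacts were mapped by enhanced CLIP, in which ultraviolet light joins protein and RNA before the protein is captured and its RNA sequenced. Per the labels, 2 FMRP immunoprecipitates on FLAG beads, labelled as intestinal progenitor cells, were set beside 1 size-matched input, labelled as all cells. Each sample was ground from 200 whole adult flies, 100 of each sex. The labels give no genotype, strain, age in days, tag or driver. The labelled cell type could not be checked against markers, because the site list holds no values per library. Each site is 1 nt wide and carries a strand and a score. The score was set by the authors, has no stated unit and serves here for description and ranking inside this 1 list. Depth is unknown and nothing here could be tested between libraries or animals.

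Ribosomal RNA (rRNA) is made by RNA polymerase I as a long precursor from tandem repeats of the rDNA. The precursor opens with an external transcribed spacer, and internal spacers separate the mature parts. 18S rRNA goes to the small ribosomal subunit. 5.8S, 2S and 28S rRNA go to the large subunit, the short 2S rRNA being a separate piece of the 5.8S rRNA in flies. Many fly 28S copies are interrupted by R1 or R2 retrotransposons, and broken copies lie beside intact ones. rRNA is the bulk of cellular RNA, and FMRP is known to associate with polyribosomes.

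The RefSeq gene table used for names holds 21 entries under the label "X; Y": 3 precursor units, 16 mature rRNA genes or pseudogenes and 2 entries of the microRNA mir-10404, which lies in an internal spacer. The table does not name their scaffold. They were taken to be the entries of the rDNA scaffold because all are rRNA or lie within its precursor, and 333 of the 378 sites fall inside them. This was not checked by sequence, and every count by part and every distance below rests on it. The table gives spans without strand and does not mark retrotransposons. Sequences and a genome were not used here. Copies of one rRNA part can share reads, and the sources used here do not give how reads that match several copies were placed. A site is therefore a place in the deposited list, and its copy is uncertain.

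Sites of the scaffold lay mainly on 28S rRNA. The 5 annotated 28S copies held 292 of the 378 sites (77.2%, 72.7 to 81.4). The 3 copies of 18S rRNA held 35 (9.26%, 6.53 to 12.6), and the 4 copies of 5.8S rRNA held 6, all on a single pseudogene. The 4 copies of 2S rRNA held 0. A further 45 sites (11.9%, 8.82 to 15.6) lay outside any annotated entry. These intervals cover counting error only and treat neighbouring sites as independent, which they are not.

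Scaled to annotated length, 28S copies had 1.79 sites per 100 nt, 5.8S copies 1.22 and 18S copies 0.585. The 5.8S value rests on 6 sites over 492 nt. The transcribed spacers and leaders of the 3 precursor units, 6043 nt in all with both mir-10404 entries, held 0 sites. Every site within a precursor unit thus fell in 18S or 28S rRNA.

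The 3 precursor units differed in how many sites were listed on them. pre-rRNA:CR45845 held 111 sites, 22 in its 18S and 89 in its 28S rRNA. pre-rRNA:CR45847 held 37 sites, 13 in 18S and 24 in 28S. pre-rRNA:CR45846, whose annotation includes 18S, 5.8S and 2S but no 28S rRNA, held 0. The 18S rRNA starts at nt 862 of all 3 units and is 1995 nt long in each. Annotated pseudogenes held 185 sites, 1.89 per 100 nt, and annotated mature genes held 148, or 1.13 per 100 nt. These groups differ in their parts, since every 18S copy of the scaffold is annotated as a gene. Among 28S copies alone, the genes had 3.28 and 0.605 sites per 100 nt and the pseudogenes 1.32, 1.79 and 6.09.

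**Figure D1:**
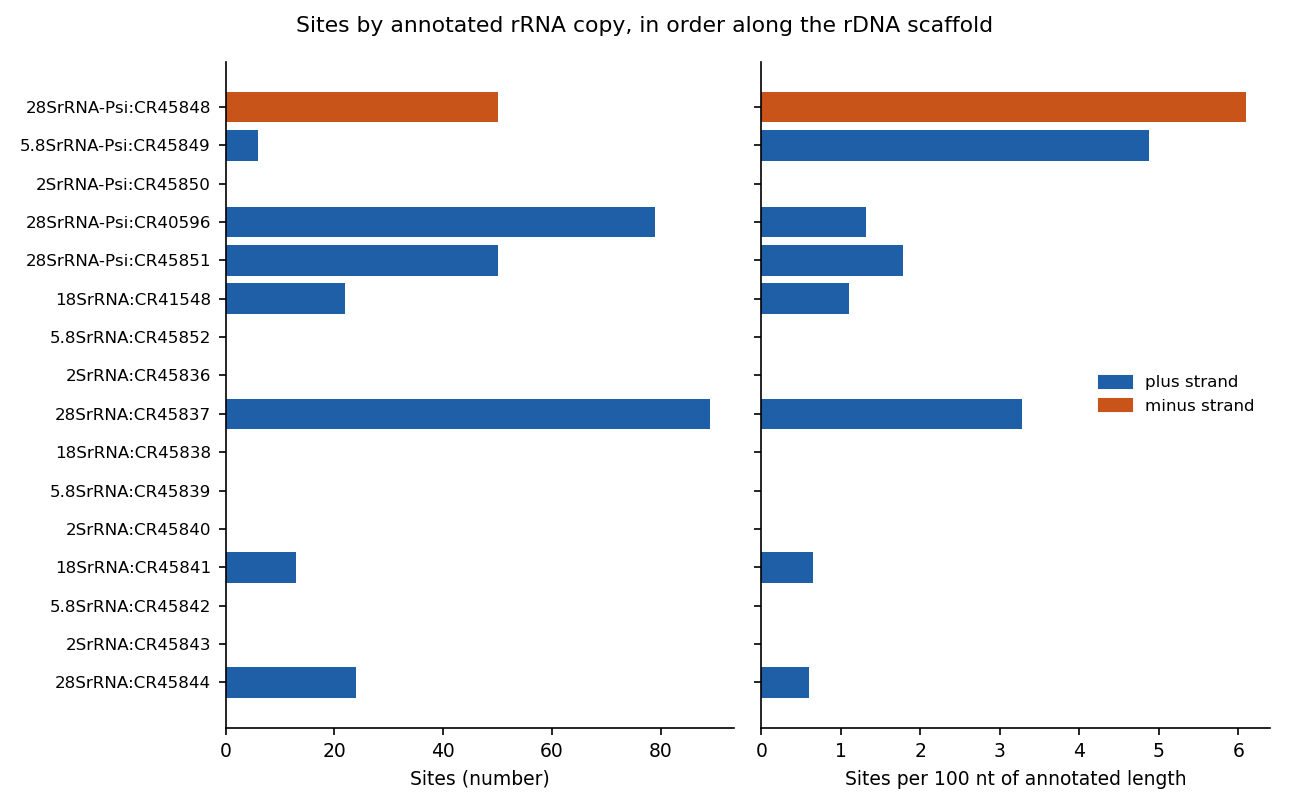
Number of sites (left) and sites per 100 nt of annotated length (right) on each of the 16 annotated mature rRNA copies, in order along the scaffold from top to bottom. 8 copies hold a site; 28SrRNA:CR45837 has the most, 89, and the short 28SrRNA-Psi:CR45848, with all 50 sites on the minus strand, has the highest density, 6.09 per 100 nt.

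The strand of the sites was fixed within each copy. On the whole scaffold 322 sites were plus-strand and 56 minus-strand, a plus share of 85.2% (81.2 to 88.6), against 46.1% among all other sites of the list. The plus share was 55.8% in rRNA entries on X and 70.9% on the mitochondrial genome. The value for X pools entries of opposite strand, since each X entry with sites also held them wholly or mainly on 1 strand. 28SrRNA-Psi:CR45859 held 61 plus-strand and 0 minus-strand sites, and 18SrRNA-Psi:CR41602 held 51 and 0. 18SrRNA-Psi:CR45861 held 1 and 92, and 28SrRNA-Psi:CR41609 held 1 and 28. The 47 sites of 5S rRNA entries and the 41 of mitochondrial rRNA genes held 0 plus-strand sites. Of the 8 mature copies with a site, 7 had sites on the plus strand only, 1 on the minus strand only, and 0 on both. The minus-strand copy was the pseudogene 28SrRNA-Psi:CR45848, with 50 sites. The other 6 minus-strand sites lay between positions 5314 and 5319, 2 to 7 nt past the end of that pseudogene. Whether the minus strand is the sense strand of this copy was not tested, since the table gives no strand.

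28SrRNA:CR45837, the 28S gene of the first precursor unit, held the most sites. Its 89 sites ran from position 47047 to 48866, which is 277 to 2096 nt from its annotated start. Their scores ranged from 0.539 to 89.4, with a median of 26.3 and quartiles of 12.8 and 42.3. Sites were not spread evenly along it. The first 500 nt held 10 sites, the next 500 nt held 38, nt 1001 to 1500 held 0, nt 1501 to 2000 held 21 and nt 2001 to 2500 held 20. The last 619 nt of the 2715 nt copy held none.

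The highest scores of this copy came from a narrow group of 9 sites at positions 47069 to 47097, with a median of 63.9. Within it, positions 47069 and 47070 scored 73.6 and 85.6, and position 47071, the next base, scored 13.1. Positions 47091 and 47092 scored 77.3 and 89.4, and positions 47093 and 47094 scored 15.8 and 2.31. Both pairs of high-scoring bases were followed by bases with much lower scores.

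28SrRNA:CR45844, the 28S gene of the last unit and 3970 nt long, held 24 sites within 251 nt. They lay 1862 to 2112 nt from its start, and the 1858 nt after them held none. The median score was 5.45, but the copy also held the highest score of the scaffold, 115.8 at position 72818. Its neighbours on either side, positions 72817 and 72819, scored 61.5 and 30.4, and the outer bases 72816 and 72820 scored 2.55 and 4.32. The remaining 19 sites, in nt 2001 to 2500, had a median of 2.58.

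28SrRNA-Psi:CR40596, annotated as a pseudogene of 6005 nt, held 79 sites with a median score of 12.6 and a range of 0.0205 to 55.0. They lay 65 to 2220 nt from its start, and the 3785 nt after them held none. The first 500 nt held 27 sites and nt 2001 to 2500 held 28. A group of 13 sites between positions 17597 and 17616 had a median of 44.7, and a group of 16 between 17000 and 17025 had a median of 3.30.

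28SrRNA-Psi:CR45851 had the highest median score of the 8 copies with a site, 37.6 over 50 sites, with quartiles of 10.9 and 47.2. Its sites lay 1636 to 2758 nt from the start of a 2800 nt span, and the 1500 nt at its start held none. A group of 15 sites at positions 37866 to 37916 had a median of 54.1 and a highest score of 71.2. The minus-strand 28SrRNA-Psi:CR45848 had a median of 12.4 and scores from 1.59 to 35.5, and none of its sites scored below 1.

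**Figure D2:**
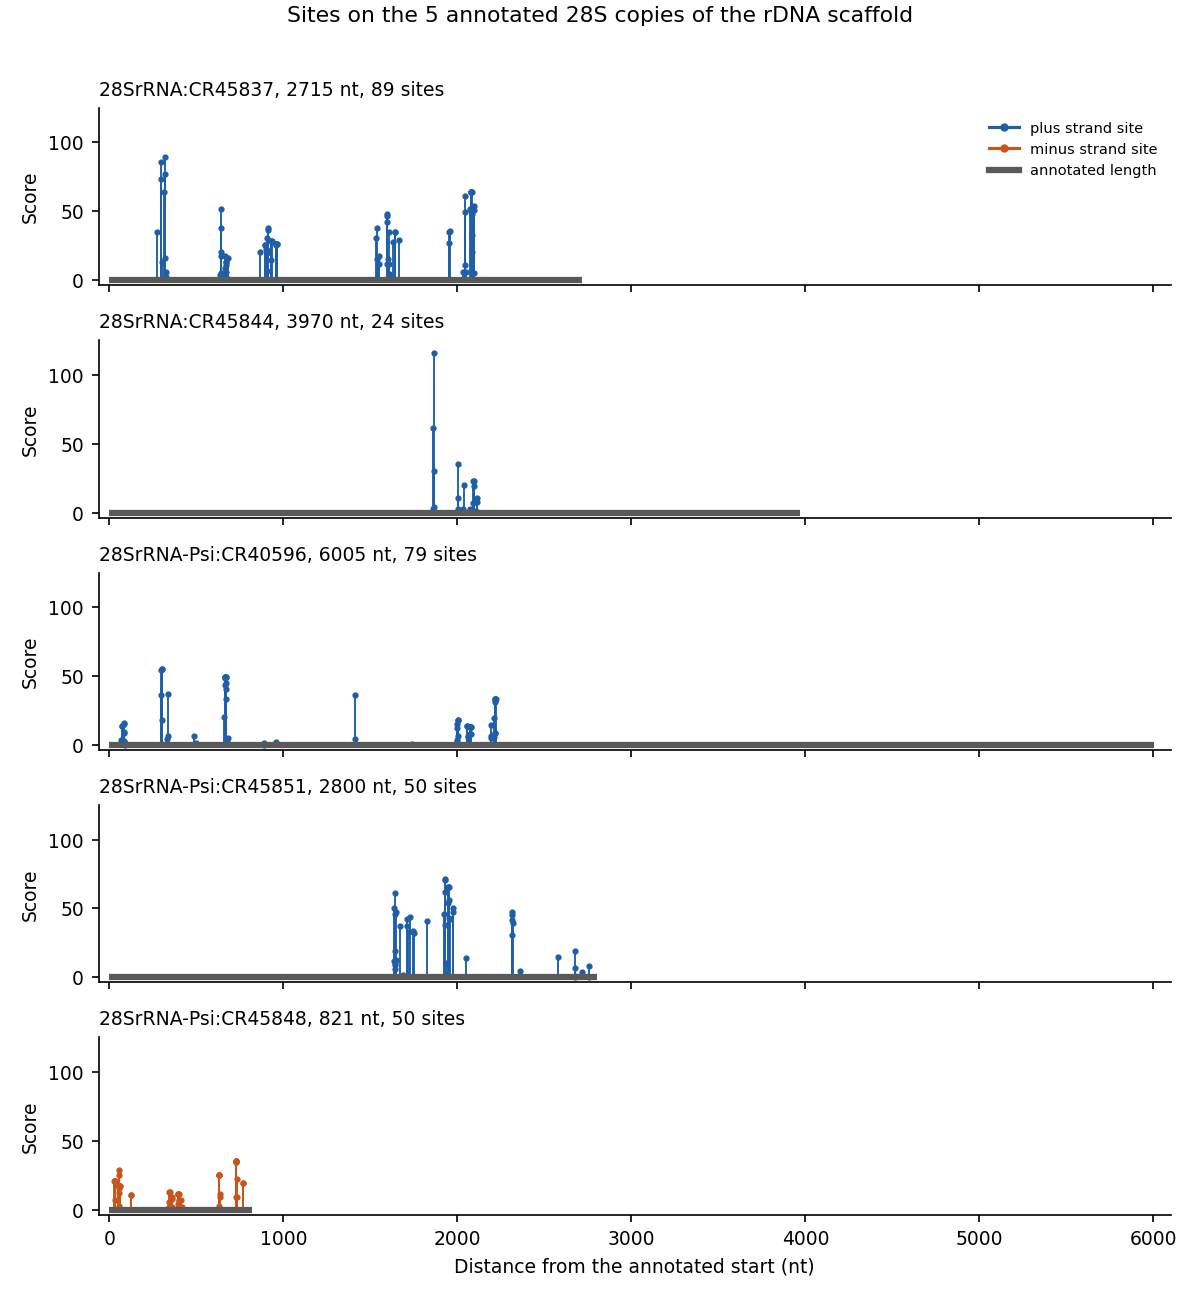
Score of each site (vertical axis, authors' value) against its distance in nt from the annotated start of each of the 5 28S copies; grey bars show the annotated length and colour the strand. Distances on the minus-strand copy run from its end with the lower position. CR45837 has sites in 4 of its 500 nt stretches, CR45844 only between 1862 and 2112 nt, and CR40596 none beyond 2220 nt.

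Places of contact were then compared between copies, counting from each annotated start. 28SrRNA:CR45837 and 28SrRNA:CR45844 both start 385 nt past the end of the 2S rRNA before them, and 28SrRNA-Psi:CR40596 starts 380 nt past it. Over annotated length, CR40596 had 1.32 sites per 100 nt, CR45837 3.28 and CR45844 0.605. No expected overlap was computed. 28SrRNA-Psi:CR40596 and 28SrRNA:CR45837 had 18 distances in common, 22.8% of the pseudogene's sites and 20.2% of the gene's. They lay at nt 299 to 301, 664 to 672, 681, 960 and 2075 to 2078. At these 18 places the score was higher in the pseudogene at 10 and in the gene at 8, and its median was 42.5 in the pseudogene and 14.6 in the gene. Over all sites of each copy the order was the other way, with medians of 12.6 and 26.3. Of the shared places, 9 are consecutive bases, nt 664 to 672. There the pseudogene scored 33.4 to 49.2 and the gene 0.539 to 17.3. Of the remaining places the gene scored higher at nt 299, 300, 681, 960 and 2075 to 2078, and the pseudogene at nt 301. The median over the 18 places thus rests mainly on 1 stretch of neighbouring bases, which are not independent. 28SrRNA:CR45837 and 28SrRNA:CR45844 had 3 distances in common, 3.37% of the 89 sites of CR45837 and 12.5% of the 24 sites of CR45844. CR40596 and CR45844 had 4 in common, 5.06% and 16.7% of their sites. The score was higher in CR40596 at 3 of these and in CR45844 at 1, with medians of 12.7 and 2.09. 28SrRNA-Psi:CR45851 and CR45837 had 3 in common, and the other pairs of 28S copies had 0. The copies were not aligned by sequence, so an insertion or deletion would move matching bases apart.

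The 18S copies shared no place at all. 18SrRNA:CR41548 held 22 sites, 551 to 1804 nt from its start, with a median score of 5.88. 18SrRNA:CR45841 held 13 sites in a narrow group 428 to 459 nt from its start, with a median of 23.7. 18SrRNA:CR45838, of the same length, held 0. The highest 18S score was 90.4 at position 44035 of 18SrRNA:CR41548, whose neighbours at 44034 and 44036 scored 6.06 and 4.14. In 18SrRNA:CR45841 the scores formed a plateau: 7 of the 9 bases from 68095 to 68103 scored between 23.7 and 24.4, and the other 2 scored 11.2 and 13.1.

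5.8SrRNA-Psi:CR45849 held the only 5.8S sites, 6 of them, 19 to 33 nt from its start, with a median score of 1.92 and a highest score of 8.84. This was the lowest median of the 8 copies. The other 3 copies of 5.8S rRNA held 0 sites.

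**Figure D3:**
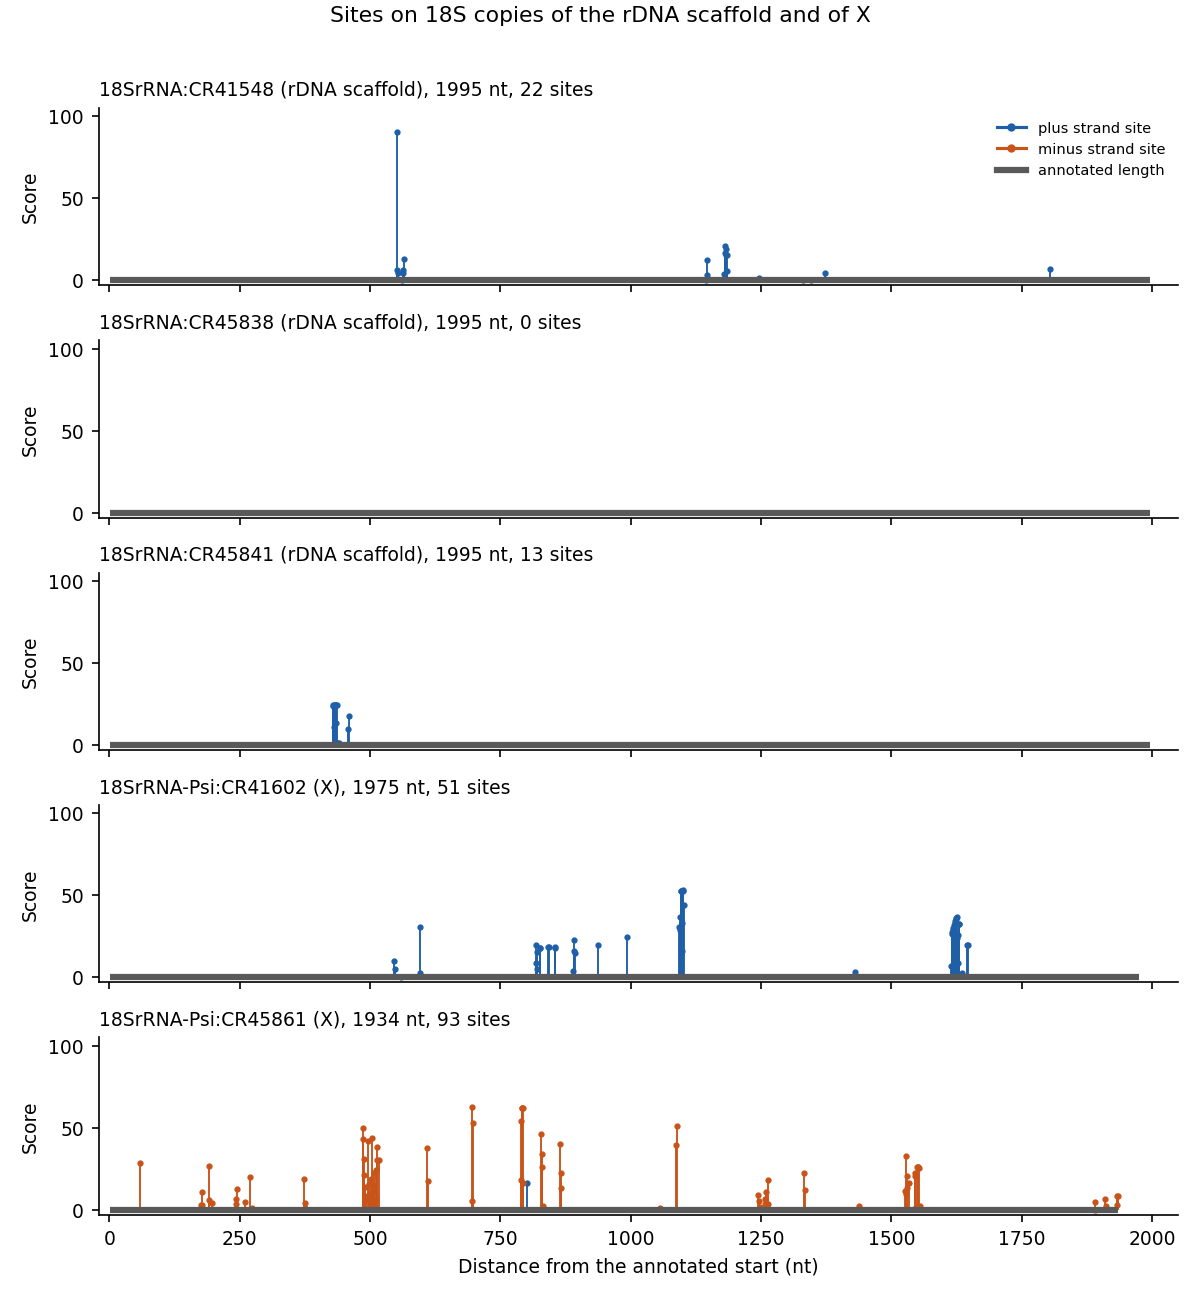
Score of each site against its distance in nt from the annotated start of the 3 18S copies of the scaffold (top) and of the 2 18S pseudogenes on X (below), with grey bars for the annotated length and colour for the strand. The scaffold copies hold 22, 0 and 13 sites, and the X copies hold 51 and 93.

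Of the 45 sites outside annotated entries, 25 lay within 30 nt of one. A group of 17 plus-strand sites at positions 35913 to 35938 ended 3 nt before 28SrRNA-Psi:CR45851 and scored from 0.0124 to 44.5, with a median of 14.8. A group of equal number at positions 62764 to 62792 lay apart, between the second and the third precursor unit and 3470 nt past the end of the second. Its scores ranged from 2.76 to 53.0 with a median of 41.1, above the median of any annotated copy on the scaffold. The other sites outside entries were 2 sites 1 to 2 nt before 5.8SrRNA-Psi:CR45849, 2 sites 143 to 144 nt past 28SrRNA:CR45837, the minus-strand group named above and a single site at position 1579.

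Neighbouring sites formed unbroken runs. With a run defined as sites on consecutive bases of 1 strand, the scaffold held 75 runs that took in 323 sites (85.4%), and 55 single sites. Among all other sites of the list 74.3% were in runs. The median run was 3 nt on the scaffold and 2 nt elsewhere. A share of 53.7% of the scaffold's sites, 203 of 378, stood in its 28 runs of at least 5 nt, against 19.2% of all other sites. In the share of sites in runs of any length the scaffold was not alone. Single sites made up 14.6% of its sites, against 12.9% in rRNA entries on X, 11.2% on the mitochondrial genome and 10.6% on other unplaced scaffolds and Y. The share in runs of at least 5 nt was not computed for these parts.

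The longest run of the scaffold was 12 nt, in 28SrRNA:CR45837 from position 48845 to 48856. Base by base its scores were 51.7, 63.7, 63.8, 63.8, 63.9, 51.1, 64.1, 47.7, 32.8, 64.3, 50.2 and 20.1. Runs of 11 nt lay at positions 62782 to 62792 (outside annotated entries, median 45.7), 17597 to 17607 (28SrRNA-Psi:CR40596, median 48.8) and 35928 to 35938 (outside annotated entries, median 32.1). The fifth was a run of 10 nt from 19146 to 19155 in 28SrRNA-Psi:CR40596, with a median of 25.5. The longest run elsewhere in the list was 25 nt.

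Scores were higher in long runs. Sites in runs of at least 5 nt had a median score of 24.1, those in runs of 2 to 4 nt 10.4 and single sites 9.04. Among all other sites of the list these medians were 5.47, 2.88 and 1.56. In the direction of each strand, the highest score of a run of at least 5 nt stood inside it in 23 of 28 scaffold runs, on its last base in 5 and on its first base in 0. Elsewhere it stood inside in 79.6% of 1856 such runs, on the last base in 13.0% and on the first in 7.38%.

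Scores on the scaffold lay high within the list. Their median was 15.5, with quartiles of 5.96 and 34.9, against 2.76 with quartiles of 1.08 and 6.33 for all other sites. On the scaffold 321 sites (84.9%) reached the median of the whole list, 2.78. Scores of at least 13.0, which mark the highest 10% of the list, were held by 210 of the scaffold's sites (55.6%, 50.4 to 60.6), against 9.71% of all other sites. High shares were not particular to the scaffold. They were 46.8% in 5S rRNA entries, 45.7% on other unplaced scaffolds and Y, and 45.2% in rRNA entries on X. The mitochondrial rRNA genes had 43.9% and the whole mitochondrial genome 33.2%. The scaffold held 0 of the 100 highest scores of the list and 85 of the 1000 highest.

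The 10 highest scores of the scaffold ranked from 150 to 335 in the list. After position 72818 came 44035 in 18S rRNA, with 90.4, and then 47092, 47070, 47091 and 47069 in 28SrRNA:CR45837, with 89.4, 85.6, 77.3 and 73.6. The last of the 10 were 37867, 37868, 37888 and 37889 in 28SrRNA-Psi:CR45851, with 71.2, 70.9, 65.8 and 65.6. At least 50 was reached by 40 of the 378 sites, 18 of them in 28SrRNA:CR45837 and 11 in 28SrRNA-Psi:CR45851.

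**Figure D4:**
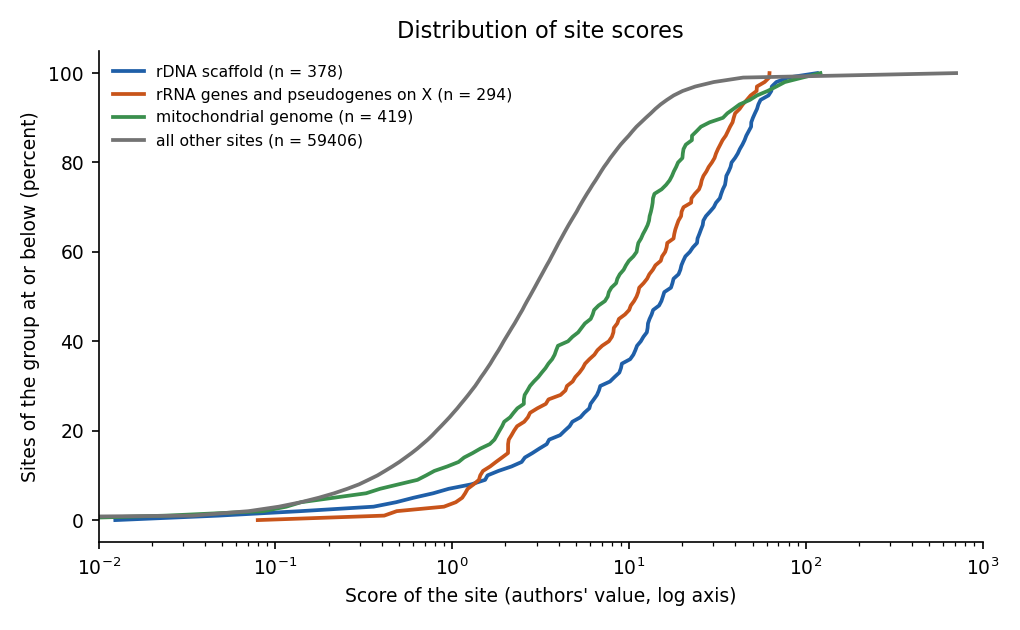
Percent of sites at or below each score (log axis) on the rDNA scaffold, in rRNA genes and pseudogenes on X, on the mitochondrial genome and among all remaining sites. The median is 15.5 on the scaffold, 11.03 in rRNA genes on X and 7.58 on the mitochondrial genome; each group is 1 part of a single list, so the curves have no replicate error.

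rRNA outside the scaffold gave the nearest comparison. The X chromosome carries 17 annotated rRNA genes and pseudogenes, which held 294 sites with a median score of 11.03. There, 28S entries held 147 sites and 18S entries 144, so 18S took 49.0% of the sites, against 9.26% on the scaffold. The other 3 sites on X lay in a precursor unit outside its parts, 0.180 per 100 nt. The transcribed spacers and leaders of the scaffold's units held 0. Per 100 nt, 28S rRNA had 1.79 sites on the scaffold and 1.801 on X, and 18S rRNA 0.585 on the scaffold and 3.68 on X. 5.8S and 2S entries on X held 0 sites, as did 2S on the scaffold. The 18S pseudogene 18SrRNA-Psi:CR41602 had 51 sites and 18SrRNA-Psi:CR45861 had 93, against 22, 0 and 13 in the scaffold's 18S genes. Copies that can share reads underlie both sets, so their shares are not independent. The rRNA genes of the mitochondrion held 41 sites with a median score of 9.39, and 5S rRNA entries, which are made by RNA polymerase III from another locus, held 47 with a median of 12.9.

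No entry of the scaffold was on the authors' target list of 1829 genes. This was 0 of 21 entries, where 10.2% of all annotated genes were on it. Of these entries 10 held at least 5 sites, among them 2 precursor units that repeat the sites of their parts. With that many sites, 9 of 9 rRNA entries on X, 6 of 6 entries of 5S rRNA and 1565 of 1741 genes of the main chromosomes (89.9%) were targets. The rule that turned sites into targets, and whether it covered the scaffold, is not stated in the labels or files.

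A list of 30 genes, from RNA polymerase I subunits to nucleolar proteins, was taken to stand for the making and processing of rRNA. The list was fixed here, and the role of each member, bel among them, was not checked. Of the 30, 3 were targets, against 11.1% of all protein-coding genes, and 4 held at least 1 site (13.3%), against 16.4%. These shares are near the background. Top1, the gene of DNA topoisomerase I, held 26 sites with a median score of 2.85. The nucleolar protein gene mod held 8 sites with a median of 4.52, and Non1, which encodes a nucleolar protein, held 4 with a median of 1.35. The DEAD-box helicase gene bel had 3 sites and was not a target. The other 26, among them Fib, the methyltransferase of box C/D snoRNPs, and the polymerase subunit genes Polr1A and Polr1B, held 0.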

How the data were processed

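Per the labels, 2 FMRP immunoprecipitates and 1 size-matched input were sequenced from whole adult flies. The deposited site list gives for each 1 nt site a strand, a state number that is the same throughout and a score, which the authors deposited without a unit. The deposited target list holds gene names only. Per the submitters' processing notes, STAR 2.7.3a, cutadapt 2.9, SAMtools 1.10, UMI-tools and DESeq2 were used, without roles. Not given in the sources used here are the site caller, genome build, pooling, the treatment of reads with several matches and the role of the input.

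Positions are those of the list, counted from 1. Names and spans came from RefSeq's table of Drosophila Release 6, where the entries taken as the scaffold's carry the label "X; Y". Of 1816 target genes on the main chromosomes, 1812 held a site as deposited, and 456 and 454 after moving sites by 100000 nt up or down. This check does not cover the scaffold. A site was given to its smallest entry, strand ignored. Of 1829 target names, 1818 matched a gene, and the 11 others had no single match and are no rRNA genes.

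Python 3.11.15, pandas 2.3.3 and scipy 1.17.1 were used, and run finding was tested on simulated data. Copies with a site, the 10 highest scores, the 5 longest runs and up to 6 list genes with most sites are named. Of the listed genes, 4 had a site. The members and lists were chosen with earlier results of these data known. The samples deposited as separate may be technical or biological repeats, and no test was made.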

Additional observations from a re-analysis of the deposited data

How the results depend on the processing

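With only sites at or above the list's median score, the scaffold's share of all sites was 1.06%, against 0.625% with every site, and the median score was 19.98, against 15.5, because low scores were left out. With each run counted once at its highest-scoring site, the share of the list was 0.424%, since 130 of 30650 such units lay on the scaffold. The number of runs was 35 with gaps of up to 50 nt allowed inside a run, against 75 with none. Under the score limit, the counting of runs, the counting of a site in every entry and the plus strand only, the shares in 28S, 18S, 5.8S and outside annotated entries stayed within their intervals. So did the plus-strand share under the score limit and the counting of runs. No replicate could be left out, since the list holds no values per library. No paired analysis was possible because the list is single for the series. Depth is unknown, so an entry with 0 sites says only that none was listed there.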

Other observations

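Neighbouring bases often carried almost the same score. On the scaffold, 248 sites were followed by a site on the next base of the same strand, and in 66 of these pairs (26.6%) the scores differed by at most 5% of the higher one. Among all other sites of the list this was 11.3% of the pairs, in rRNA entries on X 23.7% and on the mitochondrial genome 28.8%. In 28SrRNA-Psi:CR40596, positions 17600 to 17604 scored 49.1, 49.1, 49.1, 49.2 and 49.2. On the minus-strand copy and its flank the share was 43.9% of 41 pairs.

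Outside the rDNA scaffold, other unplaced scaffolds and the Y chromosome together held 775 sites with a median score of 10.9 and quartiles of 4.21 and 20.8. Whether they contain rRNA sequence was not analysed here. In the whole list 1 site was given position 0, which lies before the first base of a sequence, on one of those scaffolds.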
